A study of Mus musculus with 24 samples.

Results

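The extracellular antagonists of bone morphogenetic proteins (BMPs) and activins were examined together with a BMP ligand and the Id genes that BMP signalling is known to induce. The set holds 8 of the 47480 genes in the count table: Grem1, Fst, Fstl1, Fstl3, Bmp4, Id1, Id2 and Id3, each matched by its symbol. Grem1 and Fst were chosen by their measured interaction patterns, that is, by how their levels responded to the combined treatments in these same 8 groups, so their values are described without a test. For the other 6 genes p-values are given. All cells were wild-type mouse embryonic fibroblasts (MEFs), connective tissue cells cultured from embryos. Each group combined a small interfering RNA (siCTRL, the control, or siCop1, directed against Cop1), a compound (DMSO, the solvent, or KL001) and the absence or presence of Dexa, written here as the labels have it. This gave siCTRL with DMSO, siCTRL with KL001, siCop1 with DMSO and siCop1 with KL001, each without and with Dexa, and 3 libraries in each of the 8 groups. Cop1 encodes an E3 enzyme that marks other proteins for degradation. The compound KL001 is known to stabilise cryptochromes, which are repressors of the circadian clock. The labels state neither doses nor exposure times. No label says that replicates came from separate cultures, so the p-values measure the spread between these libraries, which may be technical.

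BMPs are secreted ligands that bind paired serine/threonine kinase receptors on the cell surface, after which phosphorylated SMAD1, SMAD5 and SMAD9 enter the nucleus with SMAD4 and induce target genes, the Id genes among them. Activins use related receptors and SMAD2 and SMAD3. Antagonists hold the ligands outside the cell: gremlin 1 (Grem1) binds BMP2 and BMP4, whereas follistatin (Fst) and follistatin-like 3 (Fstl3) bind activins with high affinity. Follistatin-like 1 (Fstl1) is an abundant secreted glycoprotein of mesenchymal cells. The Id proteins lack a DNA-binding domain and hold basic helix-loop-helix factors away from DNA.

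Library totals ran from 21409988 to 27875023 counts. Levels are given in CPM, counts scaled to a common library total after adjustment by the trimmed mean of M values (TMM). Of the 47480 genes, 28837 had a count and 14772 passed the filter on low counts, all 8 genes of the set included. Rfwd2, the older symbol under which the table lists Cop1, lay at 25.0 to 29.7 CPM in the 12 siCTRL libraries and at 4.33 to 5.79 CPM in the 12 siCop1 libraries. Fkbp5, a known glucocorticoid-induced gene, was 19.7-fold higher with Dexa in siCTRL cells with DMSO. The fibroblast label was checked against 12 markers. Col1a1 stood at 14650.5 CPM or more in each library and Vim at 4448 or more, whereas Dcn (1.55 to 4.58 CPM) and Lum (0.232 to 1.67 CPM) were low. Summed endothelial markers reached 3.61 CPM at most, macrophage markers 15.5 CPM, airway epithelium markers 21.7 CPM and squamous epithelium markers 93.7 CPM. That squamous value came from siCop1 with DMSO and Dexa, where the median library held 23.1 CPM and the lowest 21.2 CPM. Summed heart muscle markers lay above 10 CPM in 6 libraries, all siCTRL, and at or below 1.47 CPM in the other 18. The 6 were replicates 1, 2 and 3 with DMSO (51.9, 14.3 and 20.5 CPM) and replicate 2 with DMSO and Dexa (73.3 CPM), with KL001 (62.4 CPM) and with KL001 and Dexa (17.8 CPM). Leaving out the 4 siCTRL libraries numbered 2 together, an alternative chosen after these values were seen, ended no siCop1 or Dexa call of the 6 tested genes. Of the KL001 calls it ended that of Fstl1 in siCTRL with Dexa. In siCTRL with DMSO this left the 2 libraries at 51.9 and 20.5 CPM.

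In the GENCODE annotation of build GRCm38, Grem1 lies on chromosome 2 (113746164 to 113758646, minus strand) and Fst on chromosome 13 (114452290 to 114458951, minus strand). Fstl1 lies on chromosome 16 (37776873 to 37836514, plus strand), Fstl3 on chromosome 10 (79777272 to 79782630, plus strand) and Bmp4 on chromosome 14 (46383520 to 46390669, minus strand). The Id genes lie on chromosomes 2 (Id1, 152736251 to 152737410, plus strand), 12 (Id2, 25093799 to 25097140, minus strand) and 4 (Id3, 136143497 to 136145755, plus strand). Annotated genes on the opposite strand overlap Fst (Gm47040), Fstl3 (Prss57) and Bmp4 (Gm15217 and Gm15222). Whether reads were counted by strand is not stated, so reads of such pairs may not have been separated. Prss57 had at most 3 counts in a library, Gm15222 at most 43 and Gm15217 0. Gm47040 has no row in the table.

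RefSeq's table of promoters (build GRCm38.p6) holds 6 of the 8 genes, and Fst and Id1 have no entry there. The 250 bases before each RefSeq start were searched on both strands for GGCGCC (a GC-rich SMAD element), CAGAC (the SMAD box), TGANTCA (AP-1), CCGGAA (ETS), CACGTG (E-box) and the palindromic glucocorticoid response element. Of 32851 promoters in the table, 9.59% hold GGCGCC, 42.2% CAGAC, 6.75% TGANTCA, 12.03% CCGGAA, 6.02% CACGTG and 0.387% a glucocorticoid response element in that window. For Grem1, Bmp4 and Fstl3 this window lies before the annotated gene, apart from 2 exon bases for Fstl3 that are not printed. For the others the RefSeq start lies inside the annotated gene, and 182 (Fstl1), 161 (Id2) and 250 (Id3) of the 250 bases are exonic, so their windows are not described. Grem1, Bmp4 and Fstl3 are shown because Grem1 was higher and the other two lower in siCop1 cells. Capitals mark a motif match on either strand.
Grem1, chr2:113758649-113758898, minus strand: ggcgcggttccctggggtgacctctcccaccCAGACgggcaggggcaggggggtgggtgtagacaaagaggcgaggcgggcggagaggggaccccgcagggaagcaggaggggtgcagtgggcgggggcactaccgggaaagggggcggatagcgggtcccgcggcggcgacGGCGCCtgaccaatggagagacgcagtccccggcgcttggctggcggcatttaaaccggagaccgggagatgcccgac
Bmp4, chr14:46390670-46390919, minus strand: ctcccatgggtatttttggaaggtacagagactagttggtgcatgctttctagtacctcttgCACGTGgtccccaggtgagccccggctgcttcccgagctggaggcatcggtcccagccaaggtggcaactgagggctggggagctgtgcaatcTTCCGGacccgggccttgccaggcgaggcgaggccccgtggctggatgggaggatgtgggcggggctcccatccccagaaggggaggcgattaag
Fstl3, chr10:79777024-79777271, plus strand: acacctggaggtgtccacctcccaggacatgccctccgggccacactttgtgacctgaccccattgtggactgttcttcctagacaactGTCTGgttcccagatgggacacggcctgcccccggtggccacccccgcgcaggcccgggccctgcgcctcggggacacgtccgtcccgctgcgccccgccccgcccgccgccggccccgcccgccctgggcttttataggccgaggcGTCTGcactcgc
Grem1 held GGCGCC starting at position -78 and CAGAC at -219, counted from the transcription start, with -1 the last base before it. Fstl3 held CAGAC at 2 positions on the opposite strand, in capitals as GTCTG. Bmp4 held CACGTG at -188 and, on the opposite strand, CCGGAA at -95. None of the 3 windows contained TGANTCA or a glucocorticoid response element. No match overlapped another. A match here describes letters, not a bound site.

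Per kilobase of exon, Fstl1 was the most abundant of the 8 genes in siCTRL cells with DMSO, at 348 ± 9.58 CPM per kilobase (SD, n = 3). Id3 followed at 156 ± 11.7 CPM per kilobase. Id1 (50.2 ± 3.96), Grem1 (43.0 ± 0.763) and Bmp4 (33.3 ± 0.654) held the middle on that scale. Id2 (6.79 ± 0.436), Fstl3 (4.39 ± 0.371) and Fst (2.79 ± 0.230) were the lowest in CPM per kilobase. In this group the gremlin 1 transcript stood well above those of the activin-binding antagonists Fstl3 and Fst. The plot of levels by library shows all 24 libraries for each gene.

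**Figure D1:**
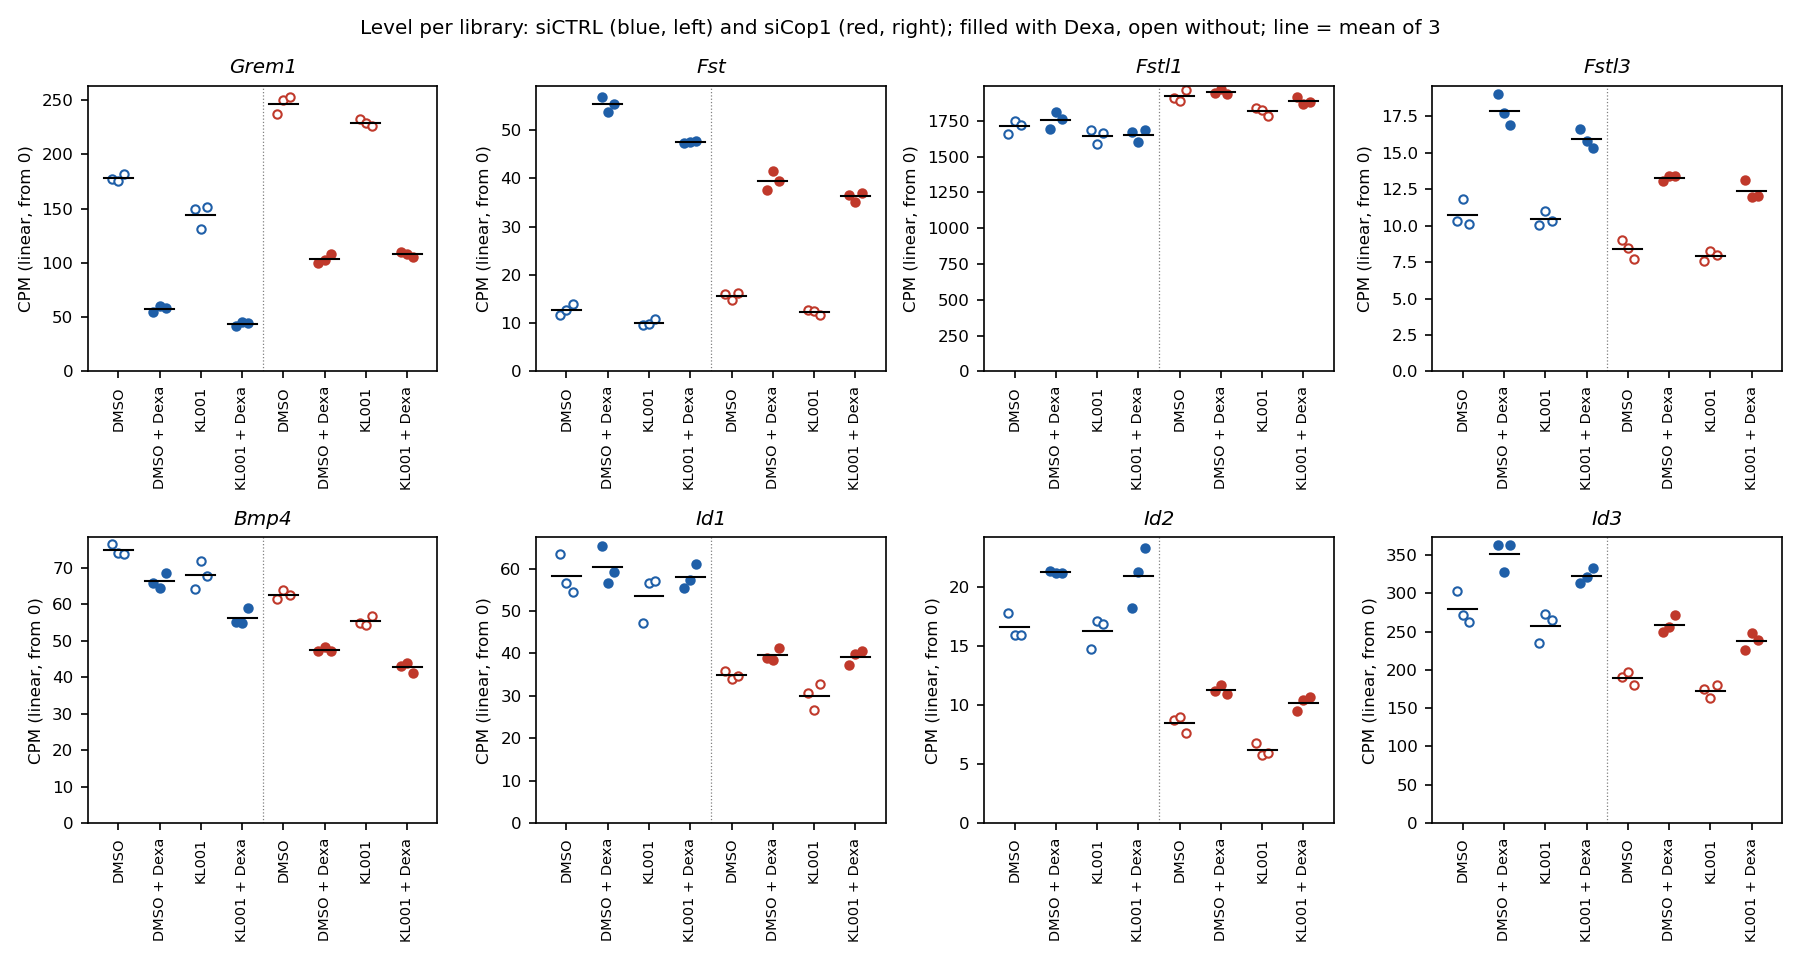
Level of each of the 8 genes in CPM (vertical axes, linear and starting at 0) in every library, by group. Points are libraries (siCTRL blue, siCop1 red, filled with Dexa) and lines are means of 3; Id1 and Id2 lie lower in all 12 siCop1 libraries than in any of the 12 siCTRL libraries.

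Grem1 was lower with Dexa, higher with siCop1 and, in siCTRL cells, lower with KL001. Its libraries read 177, 176 and 182 CPM in siCTRL cells with DMSO and 54.5, 60.7 and 58.9 CPM once Dexa was added. In siCop1 cells with DMSO they read 238, 250 and 253 CPM without Dexa and 99.5, 103 and 108 CPM with it. These 4 groups did not overlap, and siCop1 cells with Dexa kept more Grem1 than siCTRL cells with Dexa.

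With KL001 the siCTRL libraries held 149, 132 and 151 CPM of Grem1 without Dexa and 42.0, 45.6 and 44.9 CPM with it. The siCop1 libraries with KL001 held 232, 229 and 227 CPM without Dexa and 110, 109 and 105 CPM with it. Ordered by mean, siCop1 with DMSO (247 ± 7.98 CPM, SD, n = 3) came first, then siCop1 with KL001 (229 ± 2.87), siCTRL with DMSO (178 ± 3.17) and siCTRL with KL001 (144 ± 10.9). The Dexa groups followed as siCop1 with KL001 (108 ± 2.43 CPM), siCop1 with DMSO (103 ± 4.28), siCTRL with DMSO (58.0 ± 3.15) and siCTRL with KL001 (44.2 ± 1.93). Only the 2 siCop1 groups with Dexa overlapped among neighbours in this order. The fitted Grem1 difference between siCop1 and siCTRL was 0.47 ± 0.043 on the log2 scale (SE) in DMSO, 0.67 ± 0.043 in KL001, 0.83 ± 0.048 in DMSO with Dexa and 1.29 ± 0.049 in KL001 with Dexa, or 1.38-fold to 2.45-fold. The log2 difference with Dexa was -1.62 ± 0.047 and -1.71 ± 0.048 in siCTRL cells (DMSO and KL001) against -1.25 ± 0.044 and -1.09 ± 0.044 in siCop1 cells. KL001 came with a Grem1 difference of -0.30 ± 0.043 in siCTRL cells and -0.39 ± 0.051 in siCTRL cells with Dexa. In siCop1 cells that difference was -0.11 ± 0.042 without Dexa and 0.06 ± 0.045 with Dexa, where the libraries overlapped.

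Fst moved opposite to Grem1 under Dexa, and the sign of its siCop1 difference turned with Dexa. The siCTRL libraries with DMSO read 11.8, 12.8 and 13.9 CPM without Dexa and 56.7, 53.8 and 55.3 CPM with it. In siCop1 cells with DMSO they read 16.1, 14.8 and 16.2 CPM without Dexa and 37.6, 41.5 and 39.3 CPM with it. Follistatin was therefore higher in siCop1 than in siCTRL libraries without Dexa and lower with Dexa, with no overlap in either setting.

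The KL001 groups repeated that order for Fst. Their siCTRL libraries held 9.55, 9.79 and 10.8 CPM without Dexa and 47.3, 47.5 and 47.8 CPM with it, and their siCop1 libraries 12.6, 12.4 and 11.7 CPM without Dexa and 36.6, 35.1 and 37.0 CPM with it. The fitted Fst difference between siCop1 and siCTRL was 0.29 ± 0.064 (log2, SE) in DMSO and 0.28 ± 0.069 in KL001, against -0.49 ± 0.047 and -0.39 ± 0.049 with Dexa. With Dexa, Fst was 4.32-fold and 4.72-fold higher in siCTRL cells (DMSO and KL001) and 2.52-fold and 2.96-fold higher in siCop1 cells. KL001 came with log2 differences of -0.35 ± 0.069 in siCTRL, -0.22 ± 0.047 in siCTRL with Dexa, -0.36 ± 0.064 in siCop1 and -0.12 ± 0.050 in siCop1 with Dexa. In the order of mean Fst levels, siCTRL with DMSO (12.8 ± 1.06 CPM, SD, n = 3) and siCop1 with KL001 (12.3 ± 0.50) were the only neighbours that overlapped.

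**Figure D2:**
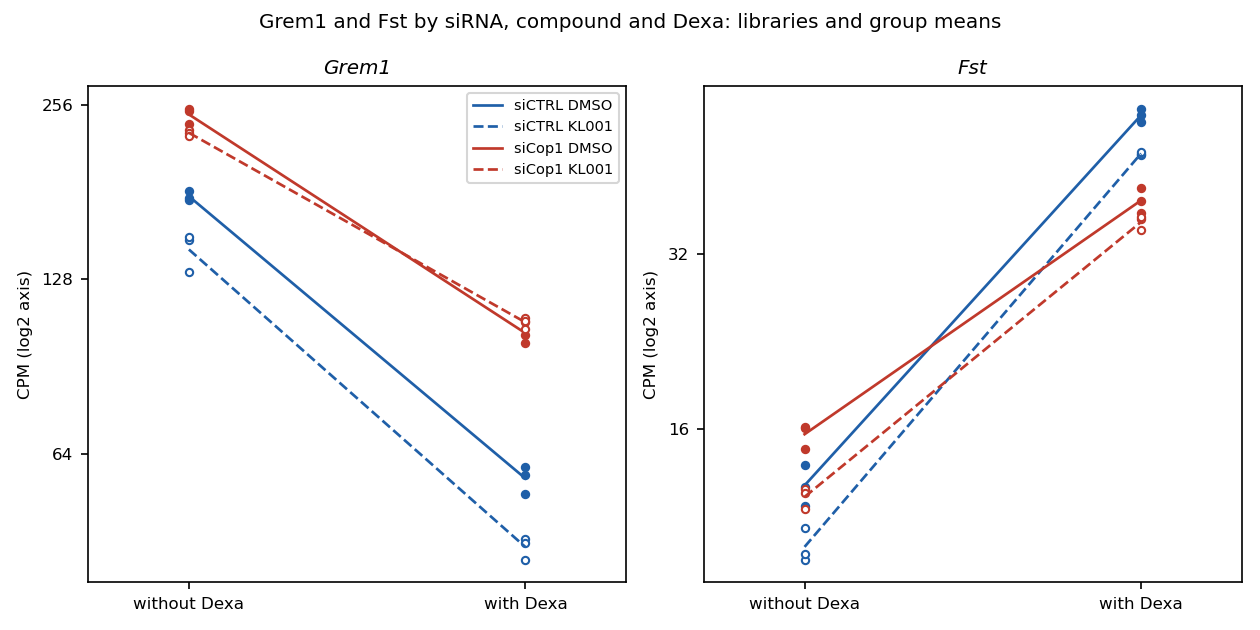
Grem1 and Fst in CPM (vertical axes, log2 scale) without and with Dexa. Points are libraries, lines join means of 3, colours give the siRNA and dashed lines with open points KL001; the Grem1 lines of siCop1 cells stay above those of siCTRL cells, whereas the Fst lines cross between 12.8 and 15.7 CPM on the left and 55.3 and 39.5 CPM on the right (DMSO).

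Fstl1 was modestly higher with siCop1 and showed no called change with Dexa. It ranged from 1586 to 1813 CPM over the siCTRL libraries and from 1781 to 1973 CPM over the siCop1 libraries, overlapping across settings but not within any of them. The log2 change with siCop1 was 0.17 ± 0.029 in DMSO (adjusted p = 3.13e-05, edgeR quasi-likelihood with Benjamini-Hochberg adjustment over all 14772 genes, as in all tests here), and 0.15, 0.14 and 0.19 in DMSO with Dexa, KL001 and KL001 with Dexa. With Dexa its log2 difference lay between 0.0067 and 0.06 over the 4 settings, and the smallest adjusted p was 0.170 (edgeR). Leaving out replicate 1 of siCTRL with DMSO and Dexa made the first of these a call (0.08, adjusted p = 0.0370, edgeR).

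Fstl3, the second activin-binding antagonist of the set, rose with Dexa and fell with siCop1 in all settings. Its siCTRL libraries with DMSO read 10.3, 11.8 and 10.1 CPM without Dexa and 19.0, 17.7 and 16.9 CPM with it. Its siCop1 libraries with DMSO read 9.02, 8.44 and 7.70 CPM without Dexa and 13.03, 13.4 and 13.4 CPM with it. None of these 4 groups overlapped. The log2 change with Dexa was 0.74 ± 0.067 in siCTRL with DMSO (adjusted p = 3.32e-10, edgeR), and 0.61, 0.66 and 0.64 in siCTRL with KL001, siCop1 with DMSO and siCop1 with KL001. The log2 change with siCop1 was -0.35 ± 0.075 in DMSO (adjusted p = 0.000512, edgeR), and -0.43, -0.40 and -0.37 in DMSO with Dexa, KL001 and KL001 with Dexa. In contrast to Fst, the sign for Fstl3 was the same without and with Dexa.

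Bmp4, a ligand that gremlin 1 binds, fell with each of the 3 treatments. It stood at 76.5, 74.1 and 73.9 CPM in siCTRL cells with DMSO, the highest group. The siCop1 libraries with KL001 and Dexa, the lowest group, held 43.2, 43.8 and 41.1 CPM. The log2 change with siCop1 was -0.26 ± 0.040 in DMSO (adjusted p = 8.15e-06, edgeR), -0.48 ± 0.042 in DMSO with Dexa, -0.30 ± 0.041 in KL001 and -0.40 ± 0.043 in KL001 with Dexa. With Dexa, Bmp4 fell by 0.18 and 0.27 on the log2 scale in siCTRL cells (DMSO and KL001) and by 0.40 and 0.37 in siCop1 cells. The smaller KL001 changes ran from -0.14 ± 0.040 in siCTRL (adjusted p = 0.0287, edgeR) to -0.24 ± 0.041 in siCTRL with Dexa (adjusted p = 0.000244, edgeR). Of these, the calls in siCTRL without Dexa and in siCop1 with Dexa (-0.16, adjusted p = 0.0311, edgeR) were lost without the filter (adjusted p = 0.0730 and 0.0626, edgeR). The first was also lost without any one library of its 2 groups other than replicate 2 of siCTRL with KL001 (adjusted p = 0.0646 to 0.149, edgeR). The second was lost without any one library other than replicate 2 of siCop1 with KL001 and Dexa (adjusted p = 0.0658 to 0.179, edgeR).

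The 3 Id genes fell with siCop1, and Id2 fell most. Id2 read 17.8, 15.95 and 15.9 CPM in siCTRL cells with DMSO and 8.76, 8.94 and 7.62 CPM in siCop1 cells with DMSO. With KL001 it read 14.7, 17.1 and 16.9 CPM in siCTRL cells and 6.79, 5.75 and 5.90 CPM in siCop1 cells. All 12 siCop1 libraries lay at or below 11.6 CPM and all 12 siCTRL libraries at or above 14.7 CPM. The log2 change of Id2 with siCop1 was -0.97 ± 0.086 in DMSO (adjusted p = 3.08e-10, edgeR), -0.92 ± 0.080 in DMSO with Dexa, -1.40 ± 0.091 in KL001 and -1.04 ± 0.082 in KL001 with Dexa.

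Id1 separated in the same way, with 47.1 to 65.4 CPM over the siCTRL libraries and 26.5 to 41.3 CPM over the siCop1 libraries. In siCTRL cells with DMSO its libraries read 63.4, 56.7 and 54.6 CPM, and in siCop1 cells with DMSO 35.8, 34.0 and 34.7 CPM. The log2 change of Id1 with siCop1 was -0.74 ± 0.077 in DMSO (adjusted p = 6.93e-08, edgeR) and -0.61, -0.83 and -0.56 in DMSO with Dexa, KL001 and KL001 with Dexa. Id3, the most abundant of the family here, read 303, 272 and 262 CPM in siCTRL cells with DMSO and 191, 197 and 181 CPM in siCop1 cells with DMSO. Its log2 change with siCop1 was -0.56 ± 0.060 in DMSO (adjusted p = 1.93e-07, edgeR) and -0.44, -0.58 and -0.44 in the other 3 settings in that order. Unlike for Id1 and Id2, the Id3 ranges of the 2 siRNAs overlapped across settings (235 to 363 against 164 to 271 CPM), and Dexa raised Id3 in both.

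Under Dexa, Id2 and Id3 rose in all 4 settings. Id2 reached 21.4, 21.2 and 21.1 CPM in siCTRL cells with DMSO and Dexa, above the 3 libraries without Dexa. Its log2 change with Dexa was 0.36 and 0.36 in siCTRL cells (DMSO and KL001) and 0.41 and 0.73 in siCop1 cells. For Id3 the corresponding log2 changes were 0.33, 0.32, 0.45 and 0.46. Id1 passed the test with Dexa in siCop1 cells with KL001 (0.38 ± 0.082, adjusted p = 0.000971, edgeR), and its values in siCTRL with DMSO, siCTRL with KL001 and siCop1 with DMSO were 0.05, 0.11 and 0.18 (adjusted p = 0.670, 0.303 and 0.111, edgeR). The last of these was called without the filter (adjusted p = 0.00925, edgeR) and in a fit on the 2 groups alone (adjusted p = 0.000813, edgeR).

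Counted over the 6 tested genes, siCop1 changed 6 of 6 in each setting, Fstl1 upward and the other 5 downward. Among all genes tested, 29.4% were called in DMSO (16.6% lower), 31.1% in DMSO with Dexa (16.7% lower), 32.7% in KL001 (18.2% lower) and 30.1% in KL001 with Dexa (16.3% lower). The 4 siCop1 comparisons use different libraries. KL001 changed 1 of 6 in siCTRL (Bmp4; 6.73% of all genes called, 3.51% lower), 2 of 6 in siCTRL with Dexa (Bmp4 and Fstl1; 10.6%, 5.58% lower), 2 of 6 in siCop1 (Bmp4 and Id2; 4.09%, 2.32% lower) and 1 of 6 in siCop1 with Dexa (Bmp4; 5.46%, 2.97% lower). Each of these went downward. The Fstl1 call was lost with the replicate number as a block (adjusted p = 0.0545 across the siRNAs and 0.0649 within each siRNA, edgeR). Dexa changed 4 of 6 in siCTRL with DMSO (26.8% of all genes, 12.7% higher), 4 of 6 in siCTRL with KL001 (26.8%, 12.7% higher), 4 of 6 in siCop1 with DMSO (23.7%, 12% higher) and 5 of 6 in siCop1 with KL001 (24.5%, 12.1% higher), with Bmp4 lower and the rest higher. The siCop1, KL001 and Dexa comparisons share groups with one another. The median log2 difference over all genes lay between -0.010 and 0.0027 in the 12 comparisons.

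**Figure D3:**
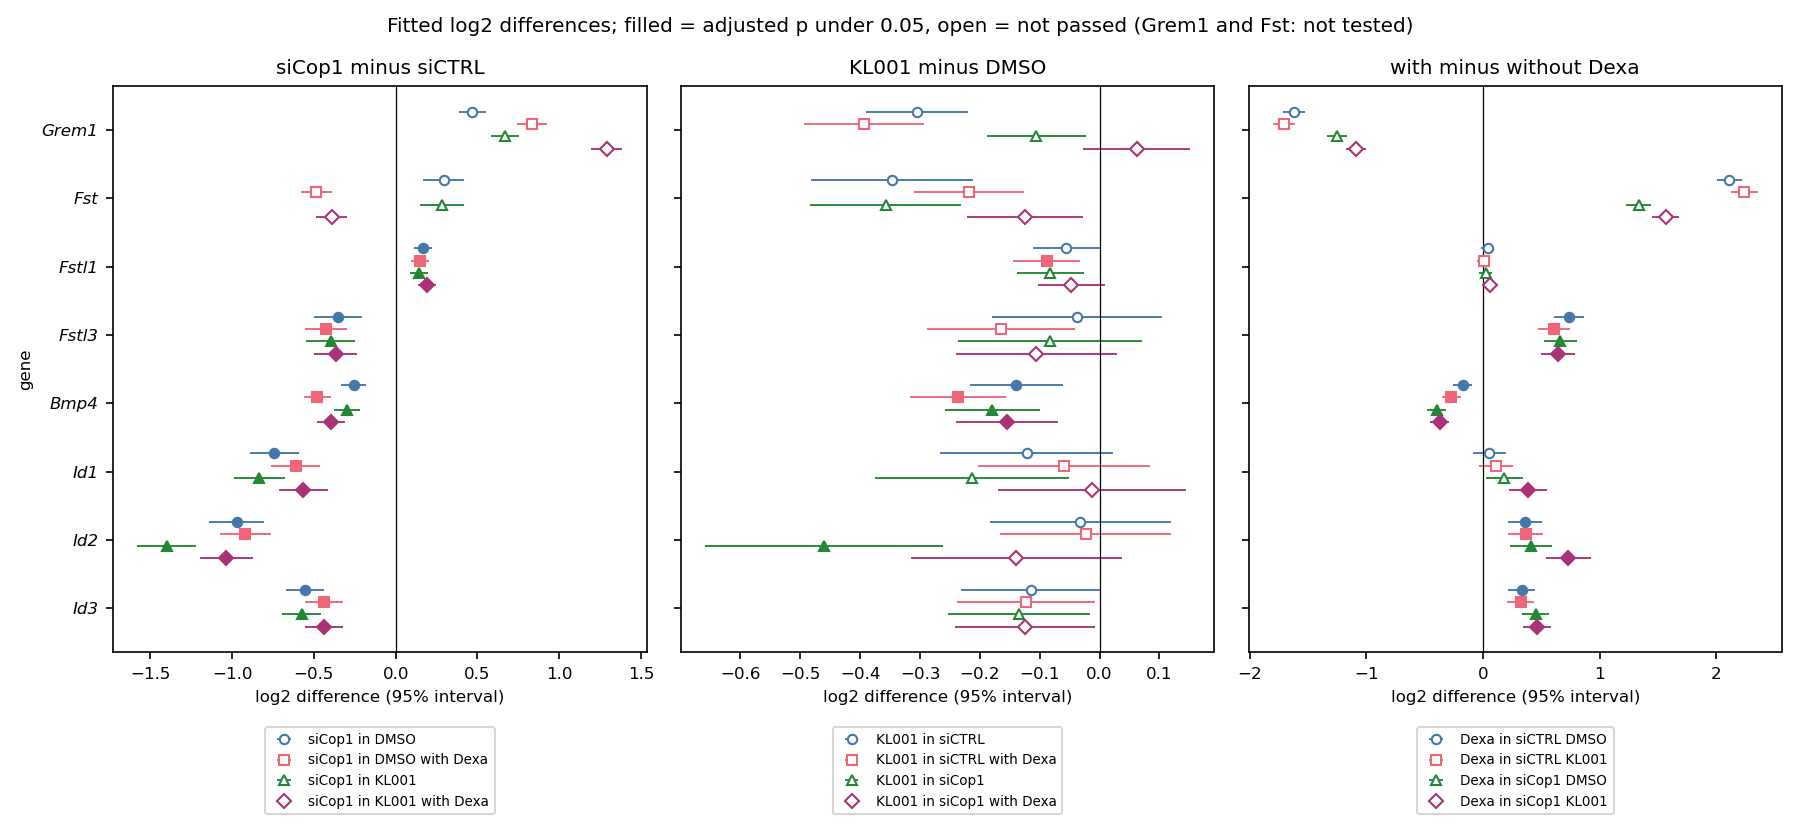
Fitted log2 differences (horizontal axes) with 95% intervals for the 8 genes under siCop1, KL001 and Dexa, by setting. The intervals of Grem1 and Fst are no test, because both genes were chosen by their values in these groups. Filled points passed an adjusted p of 0.05, open points did not, and Grem1 and Fst are open because they were not tested; 5 genes from Fstl3 to Id3 lie left of 0 in all 4 siCop1 settings.

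Markers of other cell types moved with siCop1 in part. The summed level of 6 smooth muscle genes lay at 3638 to 4249.6 CPM in siCTRL libraries and at 2303 to 2700.2 CPM in siCop1 libraries, and 6, 5, 5 and 4 of the 6 fell in DMSO, DMSO with Dexa, KL001 and KL001 with Dexa. Acta2 carried most of that sum (1676 to 3140.1 CPM), while Myh11, the smooth muscle myosin heavy chain, lay at 0.0747 to 0.782 CPM throughout. The summed level of 12 fibroblast markers lay at 42486 to 52868 CPM with siCTRL and at 37579.9 to 45855 CPM with siCop1. Col1a1 and Col1a2 carried most of it (medians of 18599 and 14020 CPM, against 44354 CPM for the sum). Of the 12, 1, 1, 3 and 3 rose with siCop1 and 3, 3, 6 and 3 fell, in the same 4 settings. With siCop1, 29.4%, 31.1%, 32.7% and 30.1% of all genes were called in these settings. Each siCop1 count of called markers given here is to be read against that share. That fibroblast sum also lay at 42746 to 52868 CPM with DMSO and at 37579.9 to 46824 CPM with KL001. With Dexa, 6 chondrocyte markers summed to 60.9 to 82.7 CPM against 50.9 to 59.5 CPM without it, with Matn1 at 0 in 23 of 24 libraries. Summed heart muscle markers lay at 0.757 to 73.3 CPM in siCTRL libraries and at 0.806 to 1.47 CPM in siCop1 libraries, 2 of 7 tested markers fell with siCop1 in DMSO and none was called in the other 3 settings, and Myh6, a myosin heavy chain gene of heart muscle, was at 0 in 15 of 24 libraries. Macrophage markers summed to a median of 4.44 CPM with siCTRL and 9.37 CPM with siCop1, and 1, 2, 1 and 2 of 4 tested markers rose, with Adgre1 at 0 in 16 libraries. Airway epithelium markers summed to medians of 7.51 and 14.1 CPM, and 0, 3, 1 and 1 of 6 tested markers rose, with Scgb1a1 at 0 in 17 libraries. Squamous epithelium markers summed to medians of 15.2 and 18.6 CPM, and 3 of 7 tested markers rose in DMSO with Dexa only among the 4 siCop1 settings. The siCop1 libraries of that setting had a median sum of 23.1 CPM and a maximum of 93.7 CPM. Of 4 tested endothelial markers 1 fell with siCop1 in DMSO, and in KL001 1 fell and 1 rose. With KL001, 5, 6, 4 and 5 of the 12 fibroblast markers fell and 1, 1, 0 and 1 rose. The settings are siCTRL, siCTRL with Dexa, siCop1 and siCop1 with Dexa, where 6.73%, 10.6%, 4.09% and 5.46% of all genes were called. Of the 6 smooth muscle genes, 2, 2, 3 and 2 fell there. With Dexa, 5 of 7 tested squamous markers rose in siCop1 with DMSO (23.7% of all genes called) and 1 in each other setting. The part of these shifts in the results was not tested. In these bulk samples fewer cells of a type and less RNA per cell cannot be told apart.

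Id2 gave the one Id call with KL001. In siCop1 cells without Dexa it fell by 0.46 ± 0.102 on the log2 scale (adjusted p = 0.00497, edgeR), against -0.03 in siCTRL cells (adjusted p = 0.882, edgeR). The test of that difference gave -0.43 ± 0.128 (adjusted p = 0.425, edgeR), so a KL001 effect particular to siCop1 cells was not shown for Id2. The Fstl1 call with KL001 in siCTRL cells with Dexa (-0.09, adjusted p = 0.0425, edgeR) was lost without the filter (adjusted p = 0.0887, edgeR) and with the replicate number as a block (adjusted p = 0.0545 with 1 block across the siRNAs and 0.0649 with a block within each siRNA, edgeR). The call was also lost without the 4 siCTRL libraries numbered 2 (-0.044, adjusted p = 0.430, edgeR). It was also lost without any one library other than replicate 1 of siCTRL with DMSO and Dexa (adjusted p = 0.0517 to 0.215, edgeR). Id1 and Id3 were lower with KL001 in siCop1 cells (-0.21 and -0.13) without passing (adjusted p = 0.191 and 0.296, edgeR), and both were called without the filter (adjusted p = 0.00651 and 0.0254, edgeR). Without the filter Id3 was also called lower with KL001 in siCTRL with Dexa and siCop1 with Dexa (adjusted p = 0.0260 and 0.0310, edgeR), against adjusted p = 0.209 and 0.302 (edgeR) with it.

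No tested gene of the set passed an interaction test, that is, a test of whether one effect differs with another factor. In 5 such tests 0 of 6 passed by edgeR and 0 by DESeq2. At an unadjusted p under 0.05 (edgeR) there were 1 for siCop1 by Dexa in DMSO, 2 for siCop1 by Dexa in KL001, 1 for siCop1 by KL001 without Dexa, 0 for KL001 by Dexa in siCTRL and 0 for siCop1 by KL001 with Dexa. Those unadjusted counts stand beside 7.6%, 7.67%, 6.65%, 6.01% and 6.93% of all genes in the same order. Over all genes these tests called 99 (0.67%), 83 (0.562%), 0 (0%), 0 (0%) and 10 (0.0677%). Without the filter they called 230, 156, 61, 133 and 59 genes. For the 2 tests with no call by edgeR, 982 and 888 genes had an unadjusted p under 0.05, and DESeq2 called 12 and 2. The smallest adjusted p in the set was 0.0771 (edgeR), for Bmp4 and siCop1 by Dexa in DMSO, where the term was -0.22 ± 0.058 on the log2 scale. As a description, the same terms for siCop1 by Dexa were 0.37 and 0.62 for Grem1 and -0.78 and -0.67 for Fst (DMSO and KL001), the values for which these genes were chosen. For siCop1 by KL001 the Grem1 terms were 0.20 without and 0.46 with Dexa, and the Fst terms -0.011 and 0.09. The first of these Fst terms ranged from -0.073 to 0.049 when a library was left out.

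Other genes of the BMP, activin and TGF-beta pathways came from a list of 100, of which 71 were tested. With siCop1, 30 of 71 were called in DMSO (9 higher and 21 lower), 31 in DMSO with Dexa (9 and 22), 32 in KL001 (12 and 20) and 32 in KL001 with Dexa (11 and 21). These calls were 42.3%, 43.7%, 45.1% and 45.1% of the 71, against 29.4%, 31.1%, 32.7% and 30.1% of all genes. Of all genes, 16.6%, 16.7%, 18.2% and 16.3% were called lower. Hfe2, with no count in some groups, had no fold change, and the median log2 difference of the other 70 lay between -0.094 and -0.041. Among the targets, Atoh8, a helix-loop-helix factor induced by BMP signalling, was the most changed. It held 21.7 ± 1.16 CPM in siCTRL cells with DMSO and 11.02 ± 0.435 CPM in siCop1 cells with DMSO (SD, n = 3). Its log2 change with siCop1 was -0.98, -0.72, -1.09 and -0.89 in DMSO, DMSO with Dexa, KL001 and KL001 with Dexa (adjusted p = 2.02e-08 or lower, edgeR). Smad9, which encodes a BMP-responsive SMAD, fell with siCop1 in the 4 settings by 0.63, 0.65, 0.69 and 0.72 on the log2 scale. The inhibitory SMAD gene Smad6 (-0.37, -0.24, -0.38 and -0.45) and the homeobox gene Msx1 (-0.49, -0.45, -0.60 and -0.48) also fell in each of the 4, as did Msx2 and Dlx5. Id4 did not pass with siCop1 in any setting (-0.10, -0.08, -0.31 and -0.39, with 0.788 to 2.67 CPM as group means). In the group of targets and Id partners, 5, 6, 5 and 6 of 12 were called, with 5 lower each time and Tcf4 the one higher in the Dexa settings. That was 41.7%, 50%, 41.7% and 50% of the 12, against 29.4%, 31.1%, 32.7% and 30.1% of all genes. The test of siCop1 by Dexa for Tcf4 did not pass (adjusted p = 0.723 in DMSO and 0.968 in KL001, edgeR).

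**Figure D4:**
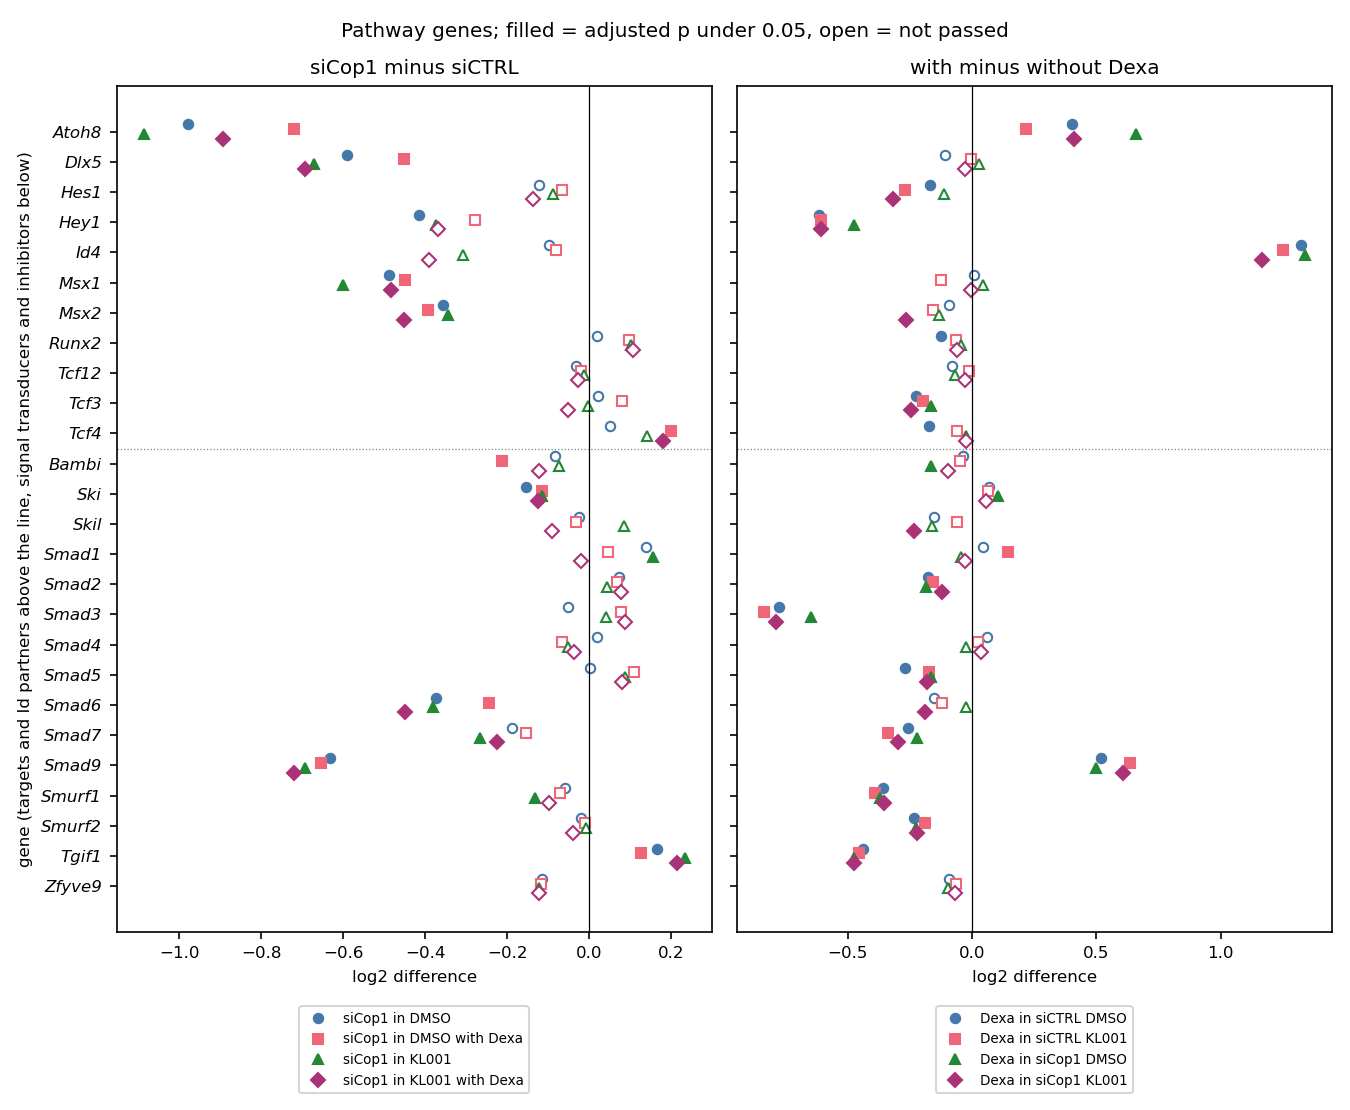
Log2 differences (horizontal axes) of 11 of the 12 tested targets and Id partners (upper genes) and of signal transducers and inhibitors (lower 15 genes) with siCop1 and with Dexa, by setting. Filled points passed an adjusted p of 0.05; Atoh8, Dlx5, Msx1, Msx2, Smad6 and Smad9 lie left of 0 in all 4 siCop1 settings, while Id4 lies between 1.17 and 1.34 with Dexa.

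Antagonists and ligands outside the set changed in both directions with siCop1. Nbl1, which encodes another secreted BMP antagonist, rose by 0.49, 0.23, 0.63 and 0.42 on the log2 scale in the 4 settings. Inhba, which encodes the activin A subunit, rose in DMSO (0.52 ± 0.114, adjusted p = 0.00134, edgeR) and KL001 (0.62 ± 0.118), and had values of 0.27 and 0.27 with Dexa that did not pass (adjusted p = 0.122 and 0.123, edgeR), while the test of siCop1 by Dexa for Inhba gave adjusted p = 0.833 in DMSO and 0.675 in KL001 (edgeR). Gdf6, a BMP-family ligand, rose in DMSO (0.61), KL001 (0.65) and KL001 with Dexa (0.56), and its value in DMSO with Dexa was 0.19 (adjusted p = 0.513, edgeR). The test of siCop1 by Dexa for Gdf6 in DMSO gave -0.43 ± 0.244 (adjusted p = 0.743, edgeR), so a difference with Dexa was not shown. Gdf15 fell in DMSO, DMSO with Dexa, KL001 and KL001 with Dexa (-0.80, -0.98, -0.69 and -0.83). Tgfbr3 (0.36, 0.30, 0.34 and 0.34) and Tgfb1 (0.26, 0.29, 0.17 and 0.27) rose in the same 4 settings. Over the 13 tested antagonists of the list, 7, 7, 4 and 7 were called (53.8%, 53.8%, 30.8% and 53.8%), with 2, 1, 2 and 2 higher. Of all genes, 29.4%, 31.1%, 32.7% and 30.1% were called in the same settings.

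With KL001 the same list gave 9 calls in siCTRL, 12 in siCTRL with Dexa, 8 in siCop1 and 9 in siCop1 with Dexa, of which 8, 11, 7 and 8 were lower. These calls were 12.7%, 16.9%, 11.3% and 12.7% of the 71 tested, against 6.73%, 10.6%, 4.09% and 5.46% of all genes. Of all genes, 3.51%, 5.58%, 2.32% and 2.97% were called lower. Chrd, which encodes the BMP antagonist chordin, fell by 0.41 on the log2 scale in siCTRL cells, from 16.7 ± 0.822 to 12.6 ± 1.16 CPM (SD, n = 3; adjusted p = 0.000479, edgeR), and by 0.42, 0.27 and 0.27 in siCTRL with Dexa, siCop1 and siCop1 with Dexa. Chrdl1, its relative, fell by 0.68 in siCTRL and by 0.48 in siCTRL with Dexa, and its values in siCop1 cells were -0.16 and -0.18 without and with Dexa (adjusted p = 0.60 and 0.509, edgeR), while the test of siCop1 by KL001 for Chrdl1 gave 0.52 ± 0.161 without Dexa (adjusted p = 0.434, edgeR). Bmper, a BMP-binding secreted protein, fell in all 4 settings (-0.32, -0.29, -0.32 and -0.35). Dlx5 fell by 0.31 in siCTRL and by 0.39 and 0.45 in siCop1 cells without and with Dexa, and its value in siCTRL with Dexa was -0.21 (adjusted p = 0.103, edgeR). The Notch and BMP target Hes1 rose without Dexa by 0.23 in siCTRL and 0.27 in siCop1 cells, and its values with Dexa were 0.13 and 0.06 (adjusted p = 0.172 and 0.691, edgeR). The test of KL001 by Dexa in siCTRL gave -0.10 ± 0.082 for Hes1 (adjusted p = 0.868, edgeR) and 0.10 ± 0.106 for Dlx5 (adjusted p = 0.889, edgeR). A KL001 effect that differs with Dexa was thus not shown for these 2 genes in siCTRL cells.

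With Dexa the list gave 40, 36, 37 and 41 calls in siCTRL with DMSO, siCTRL with KL001, siCop1 with DMSO and siCop1 with KL001, of which 29, 25, 25 and 30 were lower. These calls were 56.3%, 50.7%, 52.1% and 57.7% of the 71 tested, against 26.8%, 26.8%, 23.7% and 24.5% of all genes. Of all genes, 12.7%, 12.7%, 12% and 12.1% were called higher, and the rest of those called were lower. Of the 16 tested ligands, 10, 8, 10 and 10 were called (62.5%, 50%, 62.5% and 62.5%), of which 9, 7, 8 and 8 were lower. Bmp2, like Bmp4 a ligand that gremlin 1 binds, went from 9.75 ± 0.656 to 3.34 ± 0.196 CPM with Dexa in siCTRL cells with DMSO (SD, n = 3; log2 change -1.55 ± 0.113, adjusted p = 3.33e-12, edgeR). It fell by 1.91, 1.35 and 1.42 in the other 3 settings. Gdf6 fell in all 4 (-1.17 to -1.66). Bmp8a rose from 0.237 ± 0.051 to 2.74 ± 0.194 CPM in siCTRL cells with DMSO and was likewise called in the other 3. Id4, the remaining member of the Id family, rose by 1.32, 1.25, 1.34 and 1.17, so that Id2, Id3 and Id4 each rose with Dexa in the 4 settings.

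Across the 24 libraries, the Id genes varied together, with Pearson correlations of log2(CPM + 0.5) of 0.97 for Id1 and Id2, 0.91 for Id1 and Id3 and 0.95 for Id2 and Id3. Grem1 and Fstl3 had -0.94, and Grem1 and Fst -0.85. These values describe shared treatment groups, since all 24 libraries fall into the same 8 groups and are not independent draws. Within the 12 siCTRL libraries the Id1 and Id2 value was 0.65, and within the 12 siCop1 libraries 0.90.

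Among 9351 genes with a mean of at least 10 CPM, those with the pattern most like each gene over the 24 libraries were Mex3a (0.99) and Phlda1 (0.98) for Grem1, and Ctgf (0.99) and Glul (0.98) for Fst. For Fstl1 they were Gpm6b (0.95) and C3 (0.94), for Fstl3 Gas6 (0.98) and Tead3 (0.98), and for Bmp4 Creb3l1 (0.96) and Sfrp2 (0.95). For Id1 Noa1 (0.97) is given, for Id2 they were Pxdc1 (0.97) and Hspa5 (0.96), and for Id3 Plpp1 (0.98) and Xbp1 (0.97). All are Pearson correlations over libraries, given as descriptions.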

How the data were processed

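RNA from 24 libraries of mouse embryonic fibroblasts was sequenced as stranded mRNA libraries with short single reads. The authors deposited a table of raw counts per gene symbol, which was used for every test, and a table of normalized values (unit: signal), which the deposited raw counts divided by 1 size factor per library reproduced for 100% of values within 0.011. The submitters' processing notes name bcl2fastq 1.8.4, STAR 2.4.5a, featureCounts of Subread 1.4.6-p3, Picard 1.126 and DESeq2, and the builds GRCm38 and mm10. The strand setting, the annotation and the handling of shared reads are not stated. The 2 tables held 0 unmapped columns.

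Tests used edgeR 4.0.16 in R 4.3.3: TMM scaling, filterByExpr (count minimum 10, total minimum 15), a robust quasi-likelihood fit of all 24 libraries with 1 mean per group, and Benjamini-Hochberg adjustment over 14772 genes at 0.05. SEs are the log2 difference divided by the square root of F. Totals were 21409988 to 27875023 counts, and the common biological coefficient of variation was 3.71%. Alternatives were RLE scaling, no filter, DESeq2 1.42.0, a replicate block across and within the siRNAs, only the groups compared and leaving out each library. Of these the block within each siRNA, and leaving out the 4 siCTRL libraries numbered 2, were added after the data were seen. Column names carry the replicate numbers through the settings of an siRNA. Same-numbered libraries deviated together (correlation over 0.1 in each of 3 pairs) in 2 of 12 comparisons, KL001 in siCTRL with Dexa (0.105 to 0.333) and Dexa in siCTRL with KL001 (0.182 to 0.422). These 2 count as paired by the data, though no label says so. Their values and calls still come from the main fit, which has no block, with the blocked fits as alternatives. Same-numbered pairs had negative correlations for KL001 in siCTRL (-0.377, -0.314 and -0.024) and Dexa in siCop1 with KL001 (-0.183, -0.109 and -0.038).

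The 8 genes, the lists and the tests were chosen with earlier results of these data known. Besides 4 planned interactions, 1 more, siCop1 by KL001 with Dexa, was added after its values were seen. Further pathway genes were named by rule: up to 2 higher and 2 lower per comparison with the largest change among those past 0.05, with a mean of at least 1 CPM and no overlap between the groups. Id4, Smad6, Msx1, Msx2, Tcf4, Inhbb and Rgmb, and the values of rule-named genes outside the comparison that named them, were added after their values were seen. The 2 genes most correlated with each member were named among those with at least 10 CPM. Results of 2 genes that these rules name are not reported here, though they stay in the counts.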

Additional observations from a re-analysis of the deposited data

Results flagged for a closer look

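The siCop1 difference of Fst had opposite signs without and with Dexa, with every siCop1 library above every siCTRL library of the same compound without Dexa and below them with it. The term for that turn was -0.78 on the log2 scale in DMSO and -0.67 in KL001, and it was not tested because Fst was chosen for it. Fkbp5, the gene used to check Dexa, had terms for siCop1 by Dexa of -0.76 in DMSO (adjusted p = 2.06e-11, edgeR) and -0.64 in KL001 (adjusted p = 1.01e-09, edgeR). Its log2 change with siCop1 was 0.48 in DMSO and 0.41 in KL001, and -0.29 and -0.23 in the same compounds with Dexa. The sign of the siCop1 difference thus turned with Dexa for Fkbp5 too, and the libraries did not overlap in any of these settings.

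In the pathway list, 4 of 71 tested genes passed the test of siCop1 by Dexa in DMSO and 2 of 71 in KL001, against 0.67% and 0.562% of all genes. Inhbb, which encodes the activin B subunit, had terms of 0.32 and 0.28 (adjusted p = 0.00855 and 0.0401, edgeR). Its log2 change with siCop1 was -0.15 in DMSO and -0.13 in KL001, and 0.17 and 0.14 in the same compounds with Dexa. Nbl1 had a term of -0.26 and Rgmb, a BMP coreceptor gene, one of -0.33 in DMSO (adjusted p = 0.0242 and 0.0138, edgeR). In KL001 the terms of Nbl1 and Rgmb were -0.21 and -0.25 and did not pass (adjusted p = 0.191 and 0.141, edgeR).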

How the results depend on the processing

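All calls of the 6 tested genes with siCop1 and with Dexa kept their direction and their side of the threshold under RLE scaling, no filter, DESeq2, the replicate block across and within the siRNAs, a fit of only the compared groups, each library left out in turn and omission of the 4 siCTRL libraries numbered 2. KL001 calls did not. Members called with KL001 in siCTRL (1) numbered 0 without the filter, 0 with only the groups compared and 0 to 1 with a library left out. In siCTRL with Dexa (2) they numbered 1 with either replicate block, 1 with only the groups compared, 1 without the 4 siCTRL libraries numbered 2 and 1 to 2 with a library left out. Without the filter the count stayed at 2 with Id3 in place of Fstl1. In siCop1 (2) they numbered 4 without the filter and 5 with only the groups compared. In siCop1 with Dexa (1) they numbered 2 with only the groups compared (Bmp4 and Id3, adjusted p = 0.0240 for Id3, edgeR) and 0 to 1 with a library left out, and without the filter the 1 call was Id3 in place of Bmp4. Pathway list calls with KL001 in siCTRL (9) numbered 5 with only the groups compared, and in siCop1 (8) 4 to 8 with a library left out. The 4 came without siCop1 KL001 replicate 2. The causes were not tested. Neither replicate block changed another call of the 6 genes. Within siCTRL, same-numbered libraries had a median correlation of deviations of 0.064 over 18 pairs (8 over 0.1), and 8 of 12 libraries correlated best with their own number. Within siCop1 the values were 0.019 over 18 pairs (3 over 0.1) and 6 of 12. Over all 84 pairs 19 were over 0.1.

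Over all genes, calls with KL001 in siCTRL (994) numbered 225 with only the groups compared, 617 without the 4 siCTRL libraries numbered 2 and 653 without replicate 3 of siCTRL with DMSO. In siCTRL with Dexa (1560) they numbered 928 without replicate 1 of siCTRL with DMSO and Dexa and 962 without replicate 3 of siCTRL with KL001 and Dexa. In siCop1 (604) they numbered 950 and in siCop1 with Dexa (807) 1435 with only the groups compared. In the latter they numbered 509 without replicate 1 of siCop1 with DMSO and Dexa and 502 without replicate 3 of siCop1 with KL001 and Dexa. Interaction calls over all genes were 230, 156, 61, 133 and 59 without the filter (99, 83, 0, 0 and 10 with it). For siCop1 by Dexa in KL001 they numbered 52 with only the groups compared, 54 without replicate 3 of siCop1 with KL001 and 43 without replicate 2 of siCop1 with KL001 and Dexa. For siCop1 by KL001 with Dexa they numbered 28 by DESeq2, 5 with the replicate block across the siRNAs, 4 without the 4 siCTRL libraries numbered 2 and 2 to 10 with a library left out, where 9 of 12 libraries took the count to 5 or fewer. The 2 tests with no call had 2 and 3 with the block within each siRNA, 4 and 2 without the 4 siCTRL libraries numbered 2, and up to 6 and 3 with a library left out, in both cases replicate 2 of siCTRL with KL001.

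No called value reversed. Uncalled values near 0 changed sign as follows. For Id3, siCop1 by KL001 with Dexa gave 0.0022 with RLE scaling and 0.0017 with DESeq2, and KL001 by Dexa in siCTRL gave 0.00069 with only the groups compared. With a library left out, log2 values ranged, for KL001 in siCTRL, from -0.075 to 0.030 (Fstl3) and -0.070 to 0.034 (Id2), and for KL001 with Dexa from -0.11 to 0.070 (Id2, siCTRL) and -0.036 to 0.023 (Id1, siCop1). For Dexa in siCTRL KL001, Fstl1 ranged from -0.019 to 0.039. For siCop1 by Dexa, ranges were -0.062 to 0.0036 (Fstl1, DMSO), -0.012 to 0.096 (Id2, DMSO) and -0.014 to 0.064 (Fstl3, KL001). For siCop1 by KL001 without Dexa they were -0.11 to 0.011 (Fstl3), -0.080 to 0.0010 (Bmp4) and -0.083 to 0.023 (Id3) and -0.073 to 0.049 (Fst, described only), and with Dexa -0.0092 to 0.092 (Id1) and -0.034 to 0.047 (Id3). For KL001 by Dexa in siCTRL they were -0.024 to 0.12 (Id1), -0.079 to 0.10 (Id2) and -0.072 to 0.034 (Id3). Without the 4 siCTRL libraries numbered 2, siCop1 by Dexa in KL001 gave -0.029 (Fstl3), siCop1 by KL001 gave 0.015 (Bmp4) and 0.047 (Id3) without Dexa and -0.0020 (Fstl1) and 0.045 (Id3) with it, and KL001 by Dexa in siCTRL gave 0.011 (Id3). Each group holds only 3 libraries, which limits the precision of small differences such as those with KL001.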

Other observations

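With Dexa, 8, 9, 10 and 10 of the 15 signal transducers and inhibitors were called, of which 7, 7, 8 and 9 were lower. The settings are siCTRL with DMSO, siCTRL with KL001, siCop1 with DMSO and siCop1 with KL001, where 26.8%, 26.8%, 23.7% and 24.5% of all genes were called. Of all genes, 12.7%, 12.7%, 12% and 12.1% were called higher, and the rest of those called were lower. The transcripts below are examples in both directions, and signalling itself was not measured. Smad3, which carries activin and TGF-beta signals, went from 146 ± 5.27 to 85.1 ± 2.70 CPM in siCTRL cells with DMSO (SD, n = 3) and fell by 0.78, 0.84, 0.65 and 0.79 on the log2 scale in the 4 settings. Tgif1, a SMAD corepressor gene, fell by 0.44, 0.46, 0.48 and 0.47. Smad9 rose with Dexa by 0.52, 0.63, 0.50 and 0.61. These genes were picked out after their values were seen.

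Nog, which encodes the BMP antagonist noggin, was scarce. With Dexa it rose in siCTRL cells from 0.172 ± 0.056 to 0.674 ± 0.222 CPM in DMSO (SD, n = 3; adjusted p = 0.000183, edgeR) and from 0.147 ± 0.089 to 0.566 ± 0.098 CPM in KL001. In siCop1 cells it held 0.206 ± 0.039 and 0.236 ± 0.067 CPM in DMSO and 0.153 ± 0.040 and 0.231 ± 0.083 CPM in KL001, without and with Dexa, and did not pass (adjusted p = 0.839 and 0.527, edgeR). The test of siCop1 by Dexa for Nog gave -1.80 ± 0.615 in DMSO (adjusted p = 0.318, edgeR) and -1.40 ± 0.670 in KL001 (adjusted p = 0.671, edgeR), so a difference between the siRNAs was not shown. Nog too was picked out after its values were seen.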
